A study of Mus musculus with 904 samples.

Results

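Inward rectifier potassium channels are tetramers that pass potassium into the cell more readily than out of it and hold the membrane near the potassium equilibrium potential. The 8 genes described here are Kcnj2 and Kcnj4 (the strongly rectifying Kir2.1 and Kir2.3), Kcnj3, Kcnj6 and Kcnj9 (Kir3.1, Kir3.2 and Kir3.3, opened by G protein βγ subunits), Kcnj11 (Kir6.2, the pore of ATP-sensitive channels) and Kcnj10 and Kcnj16 (Kir4.1 and Kir5.1, the main inward rectifiers of glia). They were listed by name and are 8 of the 32285 genes in the deposited table of read counts. In the striatum Kir2 channels are known for the hyperpolarized resting state of projection neurons, in cortical neurons Kir3 channels carry slow inhibition through GABA-B and other Gi/o-coupled receptors, and in astrocytes Kir4.1 carries the large resting potassium conductance and takes up potassium released by active neurons.

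The nuclei came from C57Bl/6J mice given an enhancer-driven reporter vector in young adulthood, packaged as adeno-associated virus in the PHP.eB capsid, at 5e11 vector genomes per mouse. Nuclei were collected 3 to 4 weeks later by sorting for YFP, and each was amplified alone with SMART-Seq v4. Every sample carried a vector, so the set holds no untreated nuclei, and the sort decides which cells are seen. Titles name 16 constructs that all begin with DLX2.0, of which 12 place 1 of 6 RNA elements before or after the SYFP2-H2B reporter, and the others carry a dTomato-H2B, a modified H2B or a P2A-linked H2B reporter with or without the SIRLOIN element. No label names an animal, and the vector code in the treatment label does not map to the construct in the title, since each title occurs with 4 to 5 codes.

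Of 904 nuclei, 835 had at least 1000 genes and 10000 reads (30023 to 719419 reads, median 260274). They were classed by CPM, a gene's reads scaled to the total of its nucleus: striatal projection (Rgs9 at 20 or more, Slc17a7 under 20) 214 nuclei, Sst (100 or more) 114, Pvalb (20 or more, Sst under 100) 92, excitatory (Slc17a7 at 50 or more) 134, Aqp4 (20 or more) 35 and Mog (20 or more) 37. Another 92 nuclei met more than 1 rule and 117 met none. The lowest Rgs9 level in the striatal projection class was 32.91 CPM and the highest under its threshold 19.92, the lowest Sst level in the Sst class was 101.8 CPM and the highest under its threshold 93.32, and these values were 28.65 and 16.61 CPM for Pvalb, 59.83 and 39.37 for Slc17a7, 42.97 and 15.74 for Aqp4, and 70.58 and 15.74 for Mog. The Sst rule had the most nuclei near its threshold, with 9 of the class under 2 times the threshold and 14 kept nuclei between 0.5 and 1 times it, against 0 to 3 and 1 to 4 nuclei for the other 5 rules. Every tissue label reads primary visual cortex, while the series text also names motor cortex and striatum: the 9 striatal projection markers summed to 9835 CPM in the striatal projection class against 332 to 1197 CPM in the other 5. Astrocyte markers summed to 16355 CPM in the Aqp4 class and oligodendrocyte markers to 46795 CPM in the Mog class. The 3 library pools were unevenly spread, with no striatal projection or Mog nucleus in pool S40317, which held 54 of the 134 excitatory nuclei. Median reads per nucleus were 286357 in Aqp4 and 325977 in Mog against 233164 to 261951 in the neuronal classes, while median genes detected were 1622 and 1144 against 2560 to 3481.5.

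Nuclei are not replicates, so reads were summed by class and construct wherever at least 3 nuclei were present. This gave 70 sums of 3 to 41 nuclei, 14 for striatal projection, 15 for Sst, 13 for Pvalb, 14 for excitatory, 8 for Aqp4 and 6 for Mog. Each mean ± SD below is over these sums in CPM, and each difference is a log2 fold change ± SE from 1 edgeR quasi-likelihood fit with the construct as a block. A gene is called at a Benjamini-Hochberg adjusted p under 0.05 over the 13749 genes tested. Because sums of 1 construct may come from 1 or several mice, these p-values measure the spread between sums, which may be technical. Shares of nuclei with a read carry exact (Clopper-Pearson) 95% intervals that cover counting error only. Where no nucleus held a read, the limit given first is 3 counts of the total. A fold given as at least a value sets pooled reads against a floor of 3 reads over the class. That floor also covers counting error only and takes reads as independent, so it does not bound the difference between nuclei. All members but Kcnj16 passed the low-count filter. Together the 7 tested genes gave 49 calls in 105 tests over the 15 class pairs. The share of all genes called in these pairs ran from 1.97% (Sst against Pvalb) to 41.1% (excitatory against Aqp4). It is given pair by pair beside the member counts below.

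Both glial genes have a neuronal member as a neighbour in the genome, so the sequences upstream of these 2 pairs are shown first. In GRCm38 Kcnj9 (chromosome 1, 172320501 to 172329318, minus strand) and Kcnj10 (chromosome 1, 172341210 to 172374085, plus strand) point away from each other with 11891 bases between them. Kcnj16 (chromosome 11, 110968033 to 111027968) and Kcnj2 (chromosome 11, 111066164 to 111076821) lie in tandem on the plus strand, 38195 bases apart. The 250 bases before each RefSeq start (GRCm38.p6) are given 5′ to 3′ on the gene's strand, and capitals mark GGGCGG, a GC box, on either strand. Kcnj9 is chr1:172329323-172329572 (minus), Kcnj10 is chr1:172340960-172341209 (plus), Kcnj2 is chr11:111065914-111066163 (plus), and the first of 4 listed Kcnj16 starts is chr11:110967783-110968032 (plus).
Kcnj9: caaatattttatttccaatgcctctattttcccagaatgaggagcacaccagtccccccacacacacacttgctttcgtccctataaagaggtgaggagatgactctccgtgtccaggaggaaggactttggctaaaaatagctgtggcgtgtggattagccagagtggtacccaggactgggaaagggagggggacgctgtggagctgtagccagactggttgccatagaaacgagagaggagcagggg
Kcnj10: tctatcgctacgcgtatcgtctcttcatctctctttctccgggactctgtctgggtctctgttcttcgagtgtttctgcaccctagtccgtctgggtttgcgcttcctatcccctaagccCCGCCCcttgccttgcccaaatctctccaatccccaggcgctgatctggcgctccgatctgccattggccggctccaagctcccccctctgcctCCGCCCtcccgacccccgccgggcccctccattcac
Kcnj2: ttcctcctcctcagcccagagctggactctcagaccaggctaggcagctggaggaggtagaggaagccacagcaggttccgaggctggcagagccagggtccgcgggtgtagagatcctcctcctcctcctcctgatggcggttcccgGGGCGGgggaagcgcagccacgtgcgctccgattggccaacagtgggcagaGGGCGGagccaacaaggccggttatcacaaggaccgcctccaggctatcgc
Kcnj16: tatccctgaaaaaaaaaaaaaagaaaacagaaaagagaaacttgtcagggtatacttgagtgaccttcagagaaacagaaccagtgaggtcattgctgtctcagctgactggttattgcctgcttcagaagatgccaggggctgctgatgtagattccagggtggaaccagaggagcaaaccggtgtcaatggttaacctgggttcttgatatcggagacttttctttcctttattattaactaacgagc
The Kcnj10 and Kcnj2 windows each hold 2 GGGCGG matches, and the Kcnj9 window and the first Kcnj16 window hold none. Of the other 3 Kcnj16 windows, which are not printed, the last (chr11:111023610-111023859) holds 1 match and the others none. GGGCGG was present on either strand in 32.7% of the 32851 RefSeq windows of this length. The Kcnj10 and Kcnj2 windows are also the more GC-rich of the 4 shown (62% in Kcnj10 and 65.6% in Kcnj2 against 52% in Kcnj9 and 42.8% in Kcnj16, median of all windows 52.4%). These letter matches are a description and show no binding.

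Kcnj2 was read chiefly in striatal projection nuclei. Its 14 sums there ran from 0 to 97.0 CPM with a median of 52.5, and 3 of them were at 0 (49.2 ± 38.02). In the excitatory class the 14 sums ran from 0 to 65.7 CPM with a median of 5.48 and 6 at 0 (14.8 ± 19.5). A single Sst nucleus held all 26 reads of that class, so 14 of 15 Sst sums were at 0, and no read was found in 92 Pvalb, 35 Aqp4 or 37 Mog nuclei, which allows a share of up to 3.26%, 8.57% and 8.11% of nuclei (exact upper bounds 3.93%, 10.003% and 9.49%). Kcnj2 reads were present in 22.9% of striatal projection nuclei (17.4 to 29.1%), 11.2% of excitatory nuclei (6.40 to 17.8%) and 0.877% of Sst nuclei. The striatal projection sums overlap the excitatory ones and reach 0, where nearly all sums of the other classes lie.

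The Kcnj2 difference from Sst was 7.46 ± 1.39 on the log2 scale (adjusted p = 8.07e-05, and 0.0765 within pool S40325). Against Pvalb, with no read, the pooled striatal projection level was at least 403-fold higher (floor of 3 reads over the class, adjusted p of the fit 2.51e-05). That call was lost without pool S40327 (adjusted p = 0.0566) and within pools S40325 (0.0879) and S40327 (0.217). The higher mean over excitatory nuclei was not called (2.74 ± 1.09, adjusted p = 0.127), so these neighbours in the order of levels did not differ beyond their spread. Excitatory nuclei stood above Pvalb (at least 155-fold, adjusted p = 0.00675) and above Sst (Sst minus excitatory -4.72 ± 1.49 log2, adjusted p = 0.0399). The Sst difference was called in 15 of 31 alternatives and the Pvalb difference in 25 of 32, both lost without any 1 of the 3 pools. Excitatory Kcnj2 also varied between pools, at 28.7 CPM in S40317, 12.8 in S40325 and 10.8 in S40327, against 48.1 and 55.3 CPM for striatal projection nuclei in S40325 and S40327. Of the 15 excitatory nuclei with a Kcnj2 read, 12 were in S40317 (22.2% of its excitatory nuclei, against 4.26% in S40325 and 3.03% in S40327), a pool that held no striatal projection nucleus. The 9 striatal projection markers summed to 1197 CPM in the excitatory class (30.6 to 3175 by construct, none at 0), and their part in its Kcnj2 reads was not tested.

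**Figure D1:**
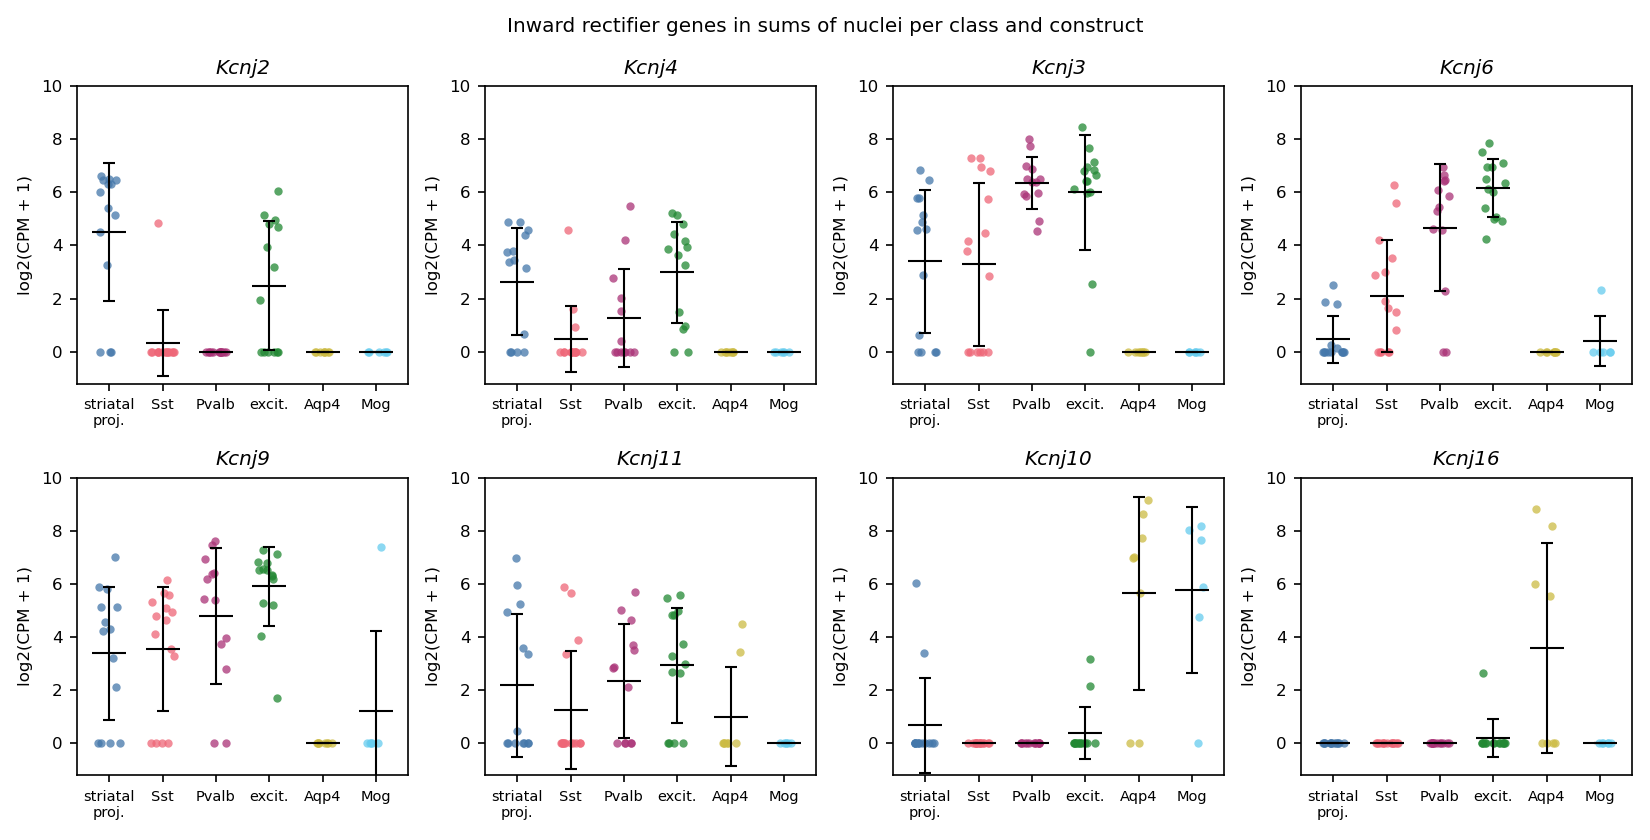
Each point is the summed level of 1 class and construct on a log2(CPM + 1) axis, with black bars for the mean and SD on that scale, in 8 panels of 1 gene each. Kcnj2 is highest in the 14 striatal projection sums, Kcnj6 in the excitatory and Pvalb sums, and Kcnj10 and Kcnj16 in glial sums.

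Kcnj4, the other Kir2 gene, had means of 13.3 CPM or less in every class. Its sums ran from 0 to 28.6 CPM in striatal projection (median 9.74, 10.97 ± 10.6) and from 0 to 36.01 CPM in excitatory nuclei (median 12.5, 13.3 ± 12.5), and these ranges overlap almost wholly. Pvalb sums reached 43.9 CPM in 1 sum but had a median of 0 (5.58 ± 12.5), and 12 of 15 Sst sums were at 0 (1.72 ± 5.88). No read fell in the 35 Aqp4 or 37 Mog nuclei. Striatal projection and excitatory levels did not differ beyond their spread (0.05 ± 0.73, adjusted p = 0.987). Sst lay below striatal projection (4.19 ± 1.18 log2 higher in the latter, adjusted p = 0.00947) and below excitatory nuclei (Sst minus excitatory -4.14 ± 1.17, adjusted p = 0.0164). Leaving out any 1 pool removed both calls, with adjusted p from 0.0738 to 0.216 for the first and 0.153 to 0.527 for the second. The second was also lost with no low-count filter (0.0575) and with the vector code in place of the construct (0.0736). In excitatory nuclei the share with a Kcnj4 read was 48.1% in pool S40317 against 6.38% in S40325 and 6.06% in S40327. The part of the pool in these results was not tested.

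Each Kir2 gene was read in a minority of nuclei, and so were both together. Of 66 striatal projection nuclei with either gene, 6 held both, as did 6 of 40 such excitatory nuclei. Kcnj2 was read in 49 and Kcnj4 in 23 of 214 striatal projection nuclei, and in 15 and 31 of 134 excitatory nuclei. No Sst or Pvalb nucleus held both. Kcnj2 was read in only 1 Sst and 0 Pvalb nuclei, so that count could hardly differ from 0. Whether the 2 genes tended to be read together was not tested. Kir2.2 is encoded by Kcnj12, which was low (3 to 11 nuclei with a read in each neuronal class, none in glia) and was not called between any 2 neuronal classes.

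The 3 Kir3 genes were read in all 4 neuronal classes. Kir3.1 forms channels with Kir3.2 or Kir3.3, and Kir3.2 can also form channels alone. All 3 had their highest mean in excitatory nuclei and their second highest among neurons in Pvalb nuclei. By pool, excitatory nuclei stood above Pvalb nuclei in every pool for Kcnj6 only. Kcnj9 was lower in excitatory than in Pvalb nuclei in S40325 (57.6 against 62.8 CPM) and S40327 (65.6 against 104) and higher in S40317 (98.3 against 75.8). Kcnj3 was lower in S40327 (81.7 against 116 CPM) and higher in S40317 and S40325. Kcnj6 spanned the widest range, from 89.6 ± 63.8 CPM in excitatory to 49.9 ± 40.1 in Pvalb, 11.5 ± 21.8 in Sst and 0.723 ± 1.47 in striatal projection sums. Every excitatory sum (17.9 to 233 CPM, median 74.7) lay above every striatal projection sum (0 to 4.68 CPM, median 0, 9 of 14 at 0). Pvalb sums (0 to 123 CPM, median 42.96) and Sst sums (0 to 76.8 CPM, median 2.16) overlapped. Reads were present in 53.7% of excitatory (44.9 to 62.4%), 40.2% of Pvalb (30.1 to 50.96%), 12.3% of Sst (6.88 to 19.7%) and 3.74% of striatal projection nuclei (1.63 to 7.23%).

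Kcnj6 was lower in striatal projection nuclei than in excitatory nuclei by -6.95 ± 0.99 log2 (adjusted p = 2.55e-07) and than in Pvalb nuclei by -5.95 ± 1.004 (adjusted p = 4.67e-06). The second call held under all 31 alternatives, and the first was lost within pool S40327 (adjusted p = 0.161). Sst nuclei were lower than excitatory (-4.16 ± 0.83, adjusted p = 0.000213, but 0.126 within pool S40325 and 0.587 within S40327) and lower than Pvalb nuclei (-3.17 ± 0.86, adjusted p = 0.0260). The Sst and Pvalb call was lost in 14 of 31 alternatives, among them 8 of the 16 that left out 1 construct (adjusted p up to 0.105) and those without S40325 (0.344) or S40327 (0.323). Excitatory and Pvalb levels did not differ beyond their spread (Pvalb minus excitatory -0.999 ± 0.76, adjusted p = 0.520), nor did Sst and striatal projection (-2.79 ± 1.03 for striatal projection, adjusted p = 0.0634). Strand of counting is not given in the sources used here, so reads of Kcnj6 and of Gm41505, which overlaps it on the other strand, cannot be told apart. The same holds for Kcnj9 and Gm36937.

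Kcnj3 had high means with wide spread. Excitatory sums ran from 0 to 353 CPM (median 92.4, 108 ± 87.4), Pvalb sums from 22.1 to 255 CPM (median 82.3, 98.6 ± 67.2), Sst sums from 0 to 155 CPM (median 12.9, 43.6 ± 60.1) and striatal projection sums from 0 to 115 CPM (median 23.2, 30.4 ± 35.8). None of the 6 pairs of neuronal classes was called, the lowest adjusted p being 0.196 for striatal projection against excitatory (-1.89 ± 0.84). The share of nuclei with a read differed more, at 50.0% of excitatory (41.2 to 58.8%) and 47.8% of Pvalb (37.3 to 58.5%) against 13.2% of Sst (7.56 to 20.8%) and 6.54% of striatal projection nuclei (3.62 to 10.7%). In nuclei that had a read the median level was 241 CPM in striatal projection and 268 in Sst, above the 191 CPM of excitatory and 203 of Pvalb. Few striatal projection nuclei therefore carried the reads of their class, 1 of them 24.4%.

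Kcnj9 stood at 79.2 ± 44.3 CPM in excitatory sums (2.27 to 155, median 84.99) and 64.8 ± 65.4 in Pvalb sums (0 to 196, median 41.7). Striatal projection sums (0 to 129, median 18.4, 27.2 ± 35.4) and Sst sums (0 to 68.8, median 23.97, 23.5 ± 21.2) were lower and overlapped both. Only Sst against excitatory was called among neuronal pairs (-2.71 ± 0.79, adjusted p = 0.0208), and leaving out any 1 pool removed it (adjusted p from 0.111 to 0.320), as did the vector code in place of the construct (0.170) and no construct block (0.0783). Reads were present in 46.3% of excitatory, 40.2% of Pvalb, 17.5% of Sst and 12.1% of striatal projection nuclei. In pools S40317, S40325 and S40327 the excitatory share was 66.7%, 27.7% and 39.4%, against 37.5%, 32.5% and 50.0% of Pvalb nuclei.

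**Figure D2:**
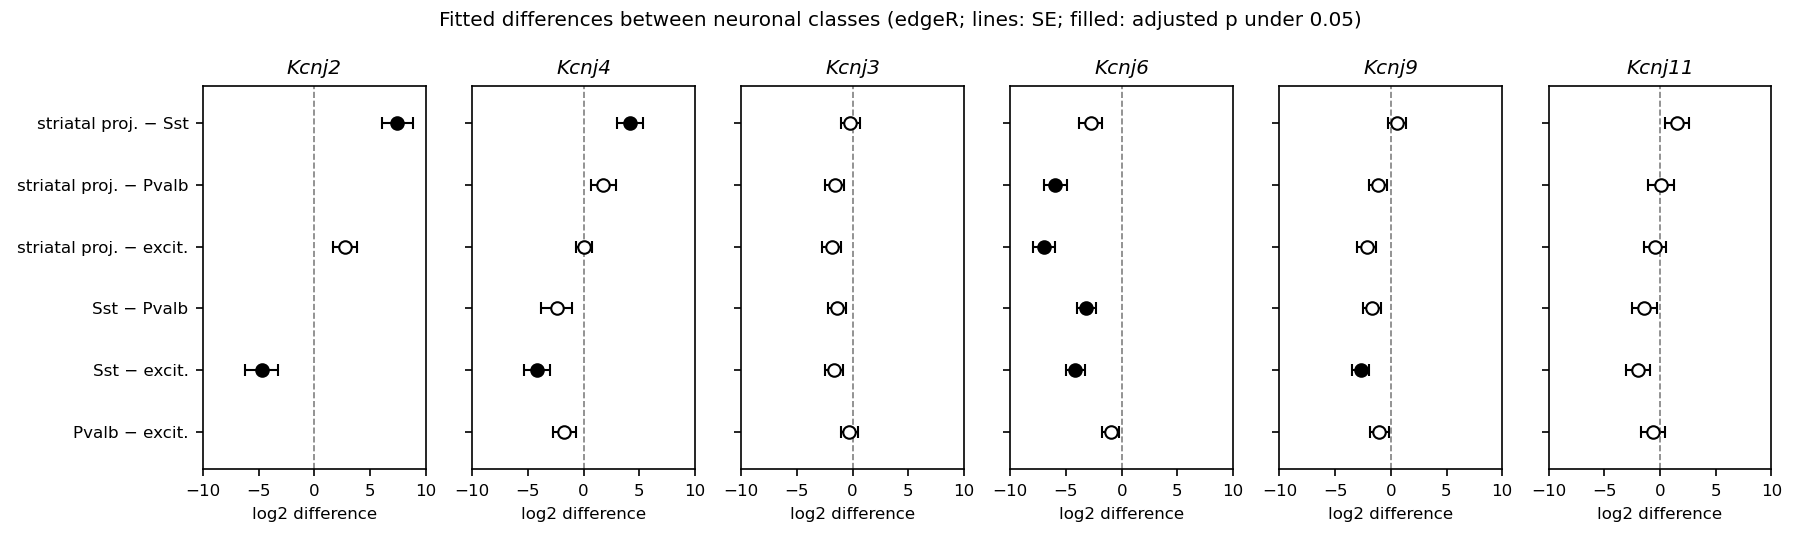
Points are edgeR log2 differences (first class minus second) for 6 genes in the pairs of neuronal classes, lines are SE, and filled points have an adjusted p under 0.05; Kcnj2 pairs with Pvalb, which had no read, are not drawn. Kcnj6 has 4 filled points and Kcnj3 and Kcnj11 have none.

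Kir3 genes were read together in the same nuclei mainly where each was common. All 3 were read in 21 of 134 excitatory and 10 of 92 Pvalb nuclei, and in none of 214 striatal projection or 114 Sst nuclei. At least 1 was read in 114 excitatory, 71 Pvalb, 41 Sst and 44 striatal projection nuclei. In striatal projection nuclei 40 of these 44 held a single Kir3 gene. Kcnj3 and Kcnj6 coincided in 38 excitatory, 20 Pvalb, 2 Sst and 1 striatal projection nuclei. These counts depend on reads per nucleus: after thinning each nucleus to 30000 reads Kcnj6 was found in 40.3% of excitatory, 29.3% of Pvalb, 7.02% of Sst and 0.935% of striatal projection nuclei, the same order as before.

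**Figure D3:**
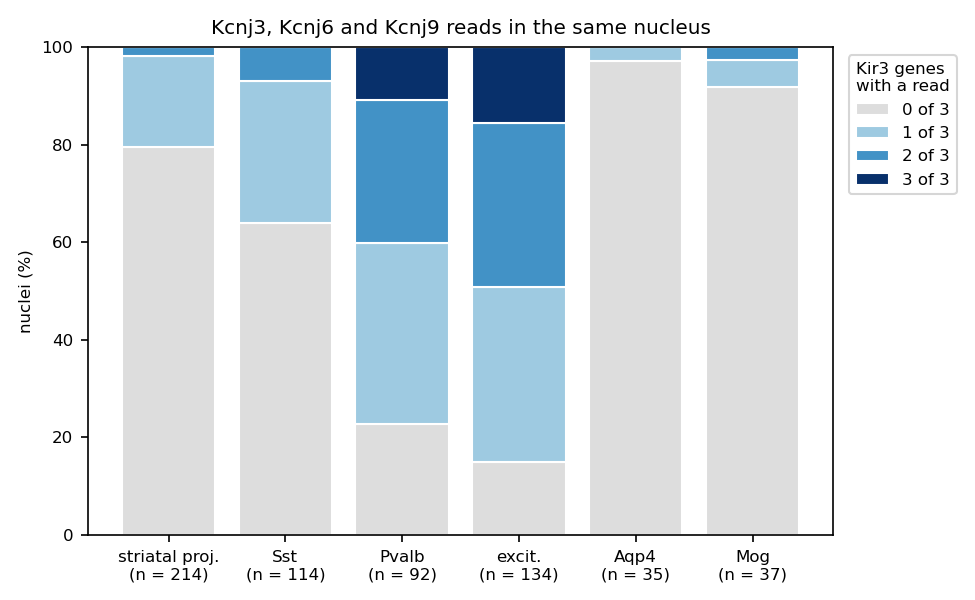
Stacked bars give the percentage of nuclei in each class with reads of 0, 1, 2 or 3 of Kcnj3, Kcnj6 and Kcnj9. Nuclei with all 3 appear in the excitatory (21 of 134) and Pvalb (10 of 92) classes, and none in the other 4.

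Kcnj11 was read in all 4 neuronal classes. Sums ran from 0 to 123 CPM in striatal projection (median 0.186, 19.4 ± 35.2), 0 to 46.8 in excitatory (median 7.83, 15.3 ± 16.5), 0 to 50.4 in Pvalb (median 6.19, 11.03 ± 15.4) and 0 to 58.6 in Sst (median 0, 8.70 ± 18.8). All 4 ranges overlap and start at 0, and no pair of neuronal classes was called (lowest adjusted p = 0.327, Sst against excitatory). Reads were present in 18.7% of excitatory nuclei (12.5 to 26.3%), 10.9% of Pvalb (5.34 to 19.1%), 6.54% of striatal projection (3.62 to 10.7%) and 4.39% of Sst nuclei (1.44 to 9.94%). The excitatory interval lay above the striatal projection and Sst intervals, also after thinning each nucleus to 30000 reads (14.9%, 9.36 to 22.1%, against 4.67%, 2.26 to 8.43%, and 3.51%, 0.964 to 8.74%). These intervals cover counting error only and are no test between classes. The excitatory share was 25.9% in pool S40317, which held no striatal projection nucleus, 14.9% in S40325 and 12.1% in S40327. In S40325 and S40327 the share was 6.38% and 6.85% of striatal projection and 8.70% and 1.64% of Sst nuclei. Kir6.2 needs a sulfonylurea receptor, and Abcc8, which encodes SUR1, was more widely read, at 54.6 ± 39.9 CPM in excitatory and 19.998 ± 40.7 in Sst sums (Sst lower by -2.57 ± 0.84, adjusted p = 0.0471). Abcc9, which encodes SUR2, had reads in 1 striatal projection and 1 excitatory nucleus. Kcnj11 and Abcc8 coincided in 10 of the 25 excitatory nuclei with Kcnj11, 2 of 10 Pvalb, 1 of 14 striatal projection and 0 of 5 Sst nuclei. Over all nuclei of these classes Abcc8 was read in 38.8%, 29.3%, 11.2% and 10.5%. Whether the 2 genes were read together beyond these shares was not tested.

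Counts of members called are set here beside the share of all 13749 genes called. Between striatal projection and Sst nuclei 2 of 7 tested members were called (11.1% of genes), both higher in striatal projection (5.72% of genes higher, 5.39% lower). Striatal projection against Pvalb gave 2 of 7 (11.5%), 1 higher (6.55%) and 1 lower (4.97%), and against excitatory 1 of 7 (6.87%), which was lower (1.95% higher, 4.92% lower). Between Sst and Pvalb 1 of 7 was called, lower in Sst (1.97% of genes, 1.38% higher and 0.589% lower). Sst against excitatory had the most member calls of the neuronal pairs, 4 of 7 (6.47%), and all 4 were lower in Sst (1.8% higher, 4.68% lower). Pvalb against excitatory gave 1 of 7 (7.88%), lower in Pvalb (1.73% higher, 6.15% lower). The median log2 difference of the 7 between Sst and excitatory was -3.91, beside -0.33 over all genes. This median is the value of Kcnj10 itself (-3.91 ± 3.01, adjusted p = 0.570). That gene had no Sst read and was read in 2 of 134 excitatory nuclei, so the median rests on a poorly estimated difference.

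Against glia the neuronal members were largely absent from the glial side. These contrasts carry a general shift: the median gene was 2.06 to 3.08 log2 higher in a neuronal than in a glial class, and fold changes are to be read relative to it. Of the 7 tested members, 5 were called between striatal projection and Aqp4 (36.5% of genes) and 5 between striatal projection and Mog (35.1%). Sst gave 4 calls against Aqp4 (34.4%) and 2 against Mog (33.4%), Pvalb 4 (32.6%) and 4 (32.3%), and excitatory 7 (41.1%) and 7 (39.6%). In each of these 8 pairs 1 of 7 was called higher in glia, and it was Kcnj10. The share of all genes called higher in glia was 4.79%, 4.58%, 4.67% and 3.88% for Aqp4 against striatal projection, Sst, Pvalb and excitatory, and 3.81%, 3.59%, 3.77% and 2.92% for Mog. Every other call was higher in neurons, where 31.7%, 29.8%, 27.9% and 37.2% of genes were called against Aqp4 and 31.2%, 29.8%, 28.5% and 36.6% against Mog. The neuronal calls against Aqp4 were Kcnj2, Kcnj3, Kcnj4 and Kcnj9 in striatal projection, Kcnj3, Kcnj6 and Kcnj9 in Sst and in Pvalb, and all 6 other tested members in excitatory nuclei. Against Mog they were Kcnj2, Kcnj3, Kcnj4 and Kcnj11 in striatal projection, Kcnj3 in Sst, Kcnj3, Kcnj6 and Kcnj11 in Pvalb, and again all 6 in excitatory nuclei. Kcnj6 had no read in Aqp4 nuclei, which put excitatory nuclei at least 291-fold and Pvalb nuclei at least 189-fold higher. Kcnj9 likewise had no Aqp4 read, with excitatory at least 272-fold higher. Kcnj11 had no Mog read, which put striatal projection 73.1-fold, excitatory 68.8-fold and Pvalb 51.5-fold above the floor of 3 reads. Its share of nuclei with a read was 6.54%, 18.7% and 10.9% in these classes, beside an exact upper bound of 9.49% in Mog nuclei. The call of Kcnj11 between excitatory and Aqp4 (3.36 ± 1.42, adjusted p = 0.0479) was kept in 8 of 29 alternatives. Leaving out SYFP2-H2B-BORG ended the Mog calls of Kcnj4 in striatal projection (adjusted p = 0.0538) and excitatory nuclei (0.0529) and of Kcnj11 in striatal projection (0.0592). Without BORG-SYFP2-H2B the Kcnj6 call between Sst and Aqp4 was lost (0.0520), and without SYFP2-H2B-3xU7snRNAOPT that of Kcnj2 between excitatory and Aqp4 (0.0551). Without pool S40327 only the excitatory calls of Kcnj6 (adjusted p = 0.0313) and Kcnj9 (0.0294) remained of the neuronal calls against Aqp4.

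Single glial nuclei held neuronal members at high level. Among 37 Mog nuclei, 1 held all 282 Kcnj9 reads (695 CPM), 1 held all 132 Kcnj3 reads (518 CPM), and 1 held 96.5% of the 226 Kcnj6 reads (855 CPM). The Kcnj3 reads and most of the Kcnj6 reads came from the same Mog nucleus. One of 35 Aqp4 nuclei held all 113 Kcnj3 reads of its class, in a construct with too few nuclei for a sum. Of 6 interneuron markers 5 were read in the Aqp4 class (897 CPM in all, 15.3 to 1734 by construct, Lhx6 at 0) and 6 in the Mog class (267 CPM, 0 to 941), against 1902 CPM in Sst and 3166 in Pvalb nuclei. Of 7 excitatory markers 3 were read in Aqp4 (458 CPM, 0 to 1119, with Neurod6, Tbr1 and Foxp2 among those at 0) and 4 in Mog (30.9 CPM, 0 to 749, Neurod6, Fezf2 and Foxp2 at 0), against 595 CPM in excitatory nuclei. Their part in these reads was not tested.

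Kcnj10 was the member with the highest level per kilobase of exon in both glial classes. Aqp4 sums were 0 in 2 of 8, with a median of 126 CPM and a highest of 576 (184 ± 203). Mog sums were 0 in 1 of 6, with a median of 129 CPM and a highest of 289 (139 ± 126). The ranges overlap and the difference was not called (-0.09 ± 1.19, adjusted p = 1.0, 0 of 7 members called beside 15.7% of genes). Reads were present in 8 of 35 Aqp4 nuclei (22.9%, 10.4 to 40.1%) and 10 of 37 Mog nuclei (27.03%, 13.8 to 44.1%). Nuclei with a read had a median of 663 in Aqp4 and 272 CPM in Mog nuclei, and 1 nucleus of each class held 30.1% and 32.4% of its reads. Astrocyte markers summed to 310 CPM in the Mog class (0 to 888 by construct), with Aldh1l1 at 0, against 16355 CPM in the Aqp4 class. Oligodendrocyte markers summed to 1719 CPM in the Aqp4 class, with Opalin at 0.

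Neurons held few Kcnj10 reads. None was found in 114 Sst or 92 Pvalb nuclei, which put Aqp4 nuclei at least 1537-fold and 1248-fold higher and Mog nuclei at least 1099-fold and 892-fold higher. Reads were present in 3 of 214 striatal projection nuclei (5.26 ± 17.2 CPM) and 2 of 134 excitatory nuclei (0.817 ± 2.25 CPM). Striatal projection lay below Aqp4 by -5.57 ± 1.76 log2 (adjusted p = 0.0103) and below Mog by -5.66 ± 1.76 (adjusted p = 0.00980). Excitatory lay below them by -7.18 ± 1.70 (adjusted p = 0.000632) and -7.26 ± 1.74 (adjusted p = 0.000761). Without pool S40327, which held 25 of the 35 Aqp4 nuclei, none of the 4 Aqp4 calls remained, and Mog could then not be fitted. Where a sum needed at least 5 nuclei only 2 Aqp4 sums remained, the 4 Aqp4 calls were lost, and the striatal projection difference turned to 2.37 ± 2.66 (adjusted p = 0.705). That setting also ended the Mog calls of striatal projection (adjusted p = 0.104) and Pvalb (0.0846). With the vector code in place of the construct, neither striatal projection call remained (adjusted p = 0.0907 against Aqp4 and 0.253 against Mog). Within pool S40327 the Mog calls of Pvalb (0.129) and excitatory nuclei (0.0899) were lost, and so were the Aqp4 calls of Pvalb and excitatory nuclei. The striatal projection call against Aqp4 was also lost without 3xU7snRNAOPT-SYFP2-H2B (adjusted p = 0.0517).

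Among the 6 classes Kcnj16 was read in the Aqp4 class and nearly nowhere else. Outside the classes, 2 nuclei that met more than 1 rule held 411 reads, and 1 that met none held 278 (1267 CPM). Its 8 Aqp4 sums ran from 0 to 450 CPM with a median of 23.02 and 4 at 0 (106 ± 170). Reads were present in 6 of 35 Aqp4 nuclei (17.1%, 6.56 to 33.7%), and 1 of them held 50.0% of the 1057 reads. None of 37 Mog nuclei held a read (up to 8.11%, exact upper bound 9.49%), and this interval overlaps that of Aqp4. Pooled over nuclei, the Aqp4 level was 411-fold above the floor of 3 Mog reads, which covers counting error only. No read was found in 214 striatal projection, 114 Sst or 92 Pvalb nuclei, and 1 excitatory nucleus held 9. It was too sparse for the test; without the low-count filter Aqp4 exceeded striatal projection (adjusted p = 0.00692), Sst (0.0198) and excitatory (0.0438), and the differences from Pvalb (0.0697) and Mog (0.0624) missed the threshold. All 3 pools held Aqp4 nuclei with Kcnj16 reads (2 of 5, 1 of 5 and 3 of 25 nuclei). Kir5.1 conducts when joined with Kir4.1, and the 2 genes were read together in 2 of the 12 Aqp4 nuclei with either.

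**Figure D4:**
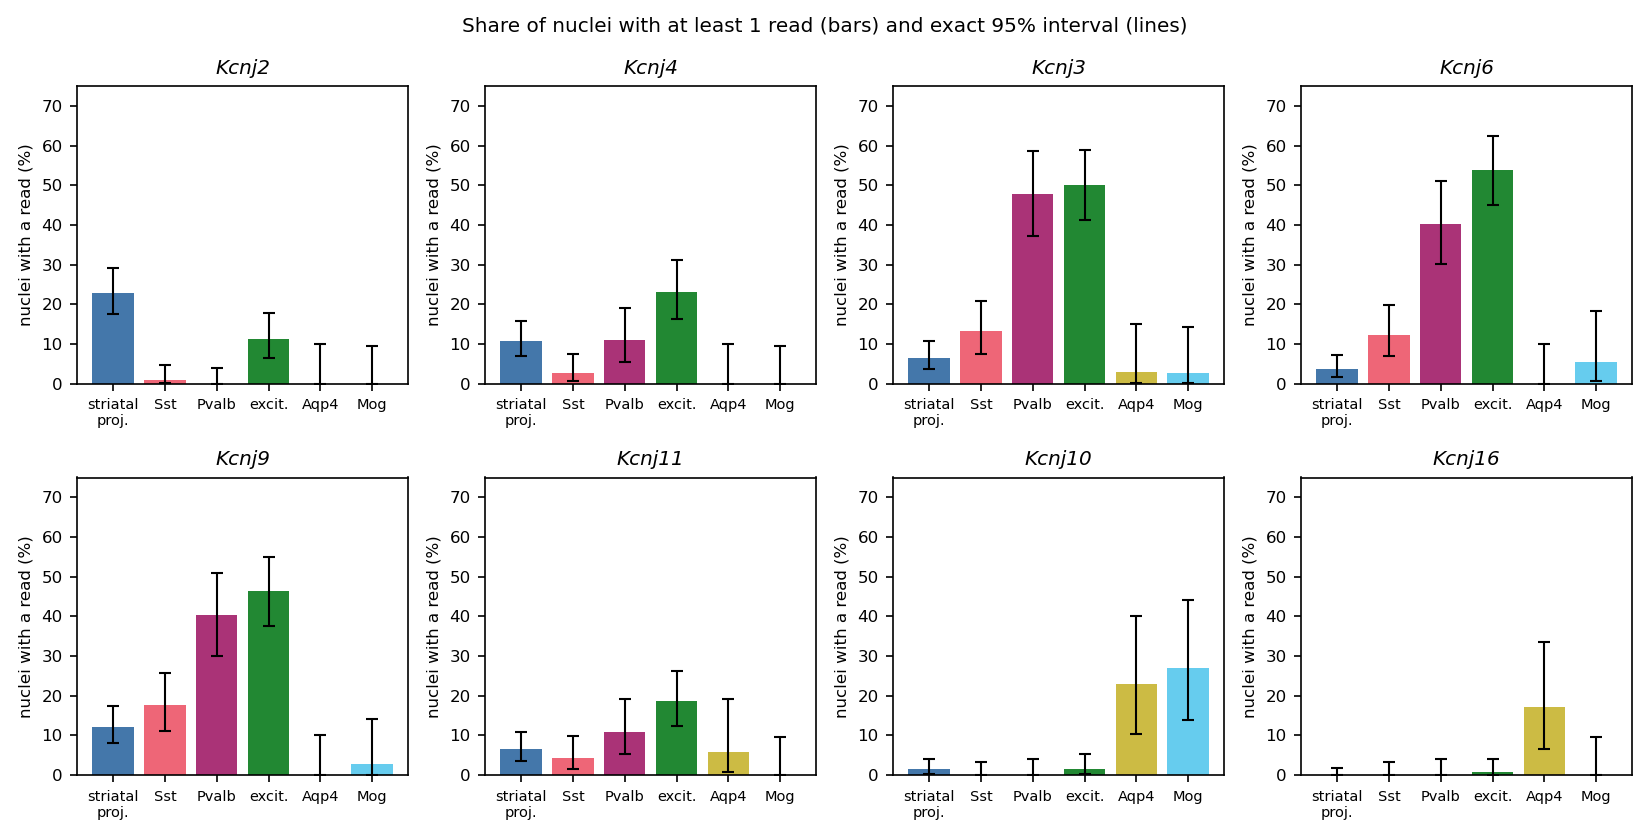
Bars give the percentage of nuclei with at least 1 read of each gene in the 6 classes, and lines the exact 95% interval, which covers counting error only. Kcnj10 is present in both glial classes (22.9% and 27.03%), while Kcnj16 is present in 17.1% of Aqp4 nuclei and in no Mog nucleus.

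To compare genes within a class, pooled CPM was divided by the kilobases of annotated exon. The counting of intronic reads is not given in the sources here, and it would favour Kcnj3 and Kcnj6, which have the longest annotated spans of the 8 genes. On this scale striatal projection nuclei held Kcnj2 highest (9.24 CPM per kb), then Kcnj9 (6.04) and Kcnj4 (5.05). Excitatory nuclei held Kcnj3 (23.02), Kcnj9 (17.96) and Kcnj6 (10.8) above Kcnj4 (5.63) and Kcnj2 (3.56). Pvalb nuclei held Kcnj3 (21.5) and Kcnj9 (18.6) above Kcnj6 (7.03), with Kcnj2 at 0. The leading pair in Sst nuclei was again Kcnj3 (7.51) and Kcnj9 (5.56). Aqp4 nuclei held Kcnj10 (28.8) and Kcnj16 (25.4) at nearly equal level, and Mog nuclei Kcnj10 (20.6). These levels carry no test.

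Striatal projection nuclei were divided by dopamine receptor reads into Drd1 (104 nuclei) and Drd2 (58 nuclei), which mark the direct and indirect pathways. Kcnj2 was present in 19.2% of Drd1 (12.2 to 28.1%) and 29.3% of Drd2 nuclei (18.1 to 42.7%). Over the 4 constructs with sums on both sides its level in Drd1 sums was 68.8 CPM in the dTomato-H2B construct, 36.4 in SYFP2-10aa-H2Bmod-BC, 61.7 in the P2A-linked construct and 0.194 in its SIRLOIN form. The Drd2 sums of those constructs were at 116, 0, 102 and 18.5 CPM. Drd2 was the higher side in 3 of the 4 constructs, and the ranges overlap. The difference was 0.68 ± 0.86 log2 (adjusted p = 0.965). Kcnj4 (1.07 ± 1.27, adjusted p = 0.962) and Kcnj9 (1.14 ± 1.22, adjusted p = 0.959) were also not called, and the remaining 5 members did not pass the filter. Of 9208 genes tested 0.076% were called.

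Excitatory nuclei were divided into superficial (Cux2, 35 nuclei) and deep (Foxp2 or Fezf2, 38 nuclei). Too few constructs had sums on both sides for a test. Pooled Kcnj6 was 108 CPM in superficial and 61.9 in deep nuclei, with a read in 21 of 35 (42.1 to 76.1%) and 24 of 38 nuclei (45.99 to 78.2%). Kcnj9 was 121 and 51.8 CPM and Kcnj3 134 and 98.7 CPM. Kcnj4 went the other way, at 7.07 CPM in superficial and 22.3 CPM in deep nuclei, and so did Kcnj11, at 7.19 and 22.6 CPM. The intervals of the shares of nuclei with a read overlapped for each of these 5 genes.

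The position of the RNA element in the reporter, the comparison that the construct names imply, was set against the same genes over 6 elements, each present before and after SYFP2-H2B. None of the 8 members was called with edgeR, nor was any of 13620 genes (0.0%; 477 genes had an unadjusted p under 0.05, DESeq2 called 83 and limma 0). Kcnj2 over all nuclei of a construct was 16.2 ± 9.70 CPM after and 12.5 ± 9.52 before, higher after in 2 of 6 elements. Kcnj11 was 14.2 ± 7.85 after and 7.002 ± 4.16 before, higher after in 5 of 6 elements (1.02 ± 0.69 log2, adjusted p = 0.9998). These sums mix the classes, and a shift in class makeup and a shift within classes cannot be told apart in them.

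Of 10 G protein subunits and regulators, all tested, 2 were called between striatal projection and Sst (11.1% of all genes), 0 between striatal projection and Pvalb (11.5%), 1 between striatal projection and excitatory (6.87%), 1 between Sst and Pvalb (1.97%), 0 between Sst and excitatory (6.47%) and 1 between Pvalb and excitatory (7.88%). Rgs6, a G protein regulator that speeds Kir3 closure, was 1 of the called genes in each of these 4 pairs. Rgs6 was at 95.6 ± 52.9 CPM in excitatory and 47.3 ± 46.7 in Sst sums against 9.34 ± 19.9 in striatal projection and 7.18 ± 17.7 in Pvalb sums (Pvalb minus excitatory -4.94 ± 0.99, adjusted p = 0.000189). Rgs7bp, the membrane anchor of such regulators, was highest in striatal projection sums (316 ± 126 CPM, 1.67 ± 0.55 log2 above Sst, adjusted p = 0.0323).

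Receptors that open Kir3 channels were called in both directions. Of 12, 11 were tested: 3 were higher and 3 lower in striatal projection than in Sst nuclei (5.72% and 5.39% of all genes), 3 and 2 against Pvalb (6.55% and 4.97%), and 2 and 3 against excitatory nuclei (1.95% and 4.92%), the higher ones led by Drd2. Gabbr2, the GABA-B subunit that couples to the G protein, was at 28.8 ± 47.9 CPM in striatal projection and 220 ± 133 in excitatory sums (-3.38 ± 0.77, adjusted p = 0.00164). Chrm2, the M2 muscarinic receptor, was lower in striatal projection than in Sst sums (-5.11 ± 1.24, adjusted p = 0.00223), and Npy1r, a neuropeptide Y receptor, was lower in Sst (-7.07 ± 1.47, adjusted p = 0.000570) and Pvalb nuclei (-5.17 ± 1.36, adjusted p = 0.00796) than in excitatory nuclei. Of the 11, 0 were called higher and 2 lower in Sst than in excitatory nuclei (1.8% and 4.68% of all genes). Pvalb against excitatory also gave 0 higher and 2 lower (1.73% and 6.15%). Sst against Pvalb gave no call among the 11, beside 1.97% of all genes.

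The 6 leak channel genes of the two-pore family, which set resting potassium conductance without rectifying inward, gave 0 calls higher and 3 lower in striatal projection than in excitatory nuclei (1.95% and 4.92% of all genes). Kcnk9 (TASK-3) was at 0.849 ± 2.16 CPM in striatal projection and 71.2 ± 49.3 in excitatory sums (-5.87 ± 1.15, adjusted p = 0.000204), and Kcnk4 (TRAAK) at 0.151 ± 0.400 and 28.6 ± 22.6 (-8.21 ± 1.49, adjusted p = 6.81e-05). Kcnk3 (TASK-1) was lower in striatal projection than in Pvalb sums (2.704 ± 7.14 against 61.2 ± 45.6 CPM, -4.98 ± 1.03, adjusted p = 0.000218). Of all genes, 5.72%, 6.55% and 1.95% were called higher in striatal projection than in Sst, Pvalb and excitatory nuclei. None of the 6 was called higher in striatal projection than in another neuronal class. Kcnk2 (TREK-1) had its highest mean there, at 112 ± 65.1 CPM with a read in 75.7% of nuclei, against 32.5 to 42.5 CPM and 35.9% to 51.8% of nuclei in the other 3 classes (2.16 ± 0.80 log2 against Pvalb, adjusted p = 0.0641). Of 7 other inward rectifier genes only Kcnj12 passed the filter, and Kcnj8, the pore of vascular ATP-sensitive channels, had its reads in 1 striatal projection and 1 excitatory nucleus.

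The genes closest to each member over the 70 sums, by Pearson correlation of log2(CPM + 1), describe shared class patterns, since sums of 1 class share their cell type and depth. Among them were Slc24a4 (0.79) and Egr3 (0.78) for Kcnj2, Gabrb2 (0.72) for Kcnj3, Inka2 (0.64) and Slc8a2 (0.63) for Kcnj4, and Fam81a (0.75) and Sphkap (0.74) for Kcnj6. For Kcnj9 they were Sh3gl2 (0.76) and Lrp11 (0.66), for Kcnj10 Cmtm5 (0.83) and Hepacam (0.80), and for Kcnj11 Odf2l (0.54) and Zfp39 (0.53). Among members the highest values joined the Kir3 genes, at 0.58 for Kcnj3 with Kcnj6, 0.51 for Kcnj6 with Kcnj9 and 0.46 for Kcnj3 with Kcnj9, while Kcnj2 with Kcnj4 stood at 0.41.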

How the data were processed

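Read counts per gene in single sorted nuclei were used as deposited. Per the submitters' processing notes, STAR 2.7.2a and mm10 were used, and the deposited whole-number counts are unnormalized per their values; the counting program, its treatment of introns and strand are not given in the sources used here. Of 2501 columns, 904 matched a sample's label and 1597 were not used. Per the labels' protocols, libraries were made with SMART-Seq v4 and Nextera XT, kits that add no molecular identifiers. No 2 libraries were identical. Gene coordinates and exon lengths came from GENCODE M21, which matched 32235 of 32285 gene identifiers.

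Nuclei with at least 1000 genes and 10000 reads were kept (835, with 69 left out). No doublet caller was run; nuclei that met more than 1 class rule were left out of every class. Counts were summed per class and construct where at least 3 nuclei were present (663300 to 12096272 reads per sum). Low-count genes were removed with filterByExpr, library sizes were adjusted by TMM, and edgeR 4.0.16 (R 4.3.3) ran the quasi-likelihood test with construct as a block and Benjamini-Hochberg adjustment over 13749 genes in each of 15 class pairs; the standard error is the log2 fold change over the square root of its F value. Drd2 against Drd1 and element position were fitted likewise on their own sums. The fit was also run on counts simulated without a construct effect, with large changes placed in well-read genes. That setting is unlike members read in few nuclei, so it does not show how well their differences are recovered. Alternatives were RLE scaling, no low-count filter, DESeq2 1.42.0, limma-voom 3.58.1, 5 nuclei per sum, 2000 genes per nucleus, halved and doubled class thresholds, the vector code as unit, no construct block, each pool left out or used alone, each construct left out, and thinning to 30000 reads. Exact 95% intervals used scipy 1.17.1, and a count of 0 was bounded at 3 reads; both cover counting error only, since amplified reads are not independent molecules. The members, classes and gene lists were chosen with earlier results of these data known. Named genes are the 8 members, the 2 genes of each list with the smallest p in a comparison, and the 2 genes most correlated with each member, except where a gene is not reported here; Kcnj8, Kcnj12, Abcc8, Abcc9 and Rgs7bp are named as list members with their counts. The labels name no animal, so p-values measure the spread between sums.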

Additional observations from a re-analysis of the deposited data

Results flagged for a closer look

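Dixon's test at the 95% level was applied to 35 groups of sums with 4 to 10 members, and the highest sum was picked out in 7 of them. In 5 of the 7 every other sum was at 0, which gives the largest possible ratio whatever the value, so the rate of about 1 in 20 that chance gives does not apply to them. The other 2 were Kcnj11 in Aqp4 and Kcnj6 in Drd1 sums. Kcnj6 reached 3.97 CPM in 1 of 6 Mog sums with the other 5 at 0, and Kcnj9 reached 164.5 CPM in 1 of 6 Mog sums, all from 1 nucleus. Kcnj11 reached 21.6 CPM in 1 of 8 Aqp4 sums. Among the 4 Drd2 sums the highest Kcnj3 value was 26.6 CPM and the highest Kcnj6 value 0.466 CPM. Among the 4 Drd1 sums the highest Kcnj6 value was 5.82 CPM and the highest Kcnj10 value 15.5 CPM.

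Nuclei outside the 6 classes also held members, and the shares listed next are above the share that a count of 0 allows. Below it were Kcnj16 (2.17% of nuclei that met more than 1 rule, 0.855% of those that met none) and Kcnj2 in nuclei that met none (0.855%). Of the 92 nuclei that met more than 1 rule, 8.70% had a Kcnj2 read, 20.7% Kcnj3, 5.43% Kcnj4, 19.6% Kcnj6, 27.2% Kcnj9, 5.43% Kcnj10 and 6.52% Kcnj11. Of the 117 that met none, 17.9% had a Kcnj3 read, 6.84% Kcnj4, 17.9% Kcnj6, 19.7% Kcnj9, 6.84% Kcnj10 and 7.69% Kcnj11. The Kir3 genes were thus the members most often read outside the classes, as they were in excitatory and Pvalb nuclei.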

How the results depend on the processing

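Of the 49 member calls between classes, DESeq2 and limma-voom kept 49, RLE scaling 47, no low-count filter 45, class thresholds doubled 48 and halved 48, no construct block 47 and the vector code as unit 40. Leaving out 1 construct kept 752 of 784. By pool, 36 of 49 remained called without S40317, 42 of 49 without S40325, 6 of the 31 that could be fitted without S40327, 2 of 11 within S40325 and 22 of 49 within S40327; the cause was not tested, and these fits hold fewer sums. At least 5 nuclei per sum kept 21, and Kcnj10 in striatal projection against Aqp4 turned to 2.37. Counts of genes called that moved by over 1.5 times were as follows. Without pool S40325, the counts were 772 for striatal projection against Sst, 632 for striatal projection against Pvalb, 437 for striatal projection against excitatory, 3260 for striatal projection against Aqp4, 50 for Sst against Pvalb, 387 for Sst against excitatory and 394 for Pvalb against excitatory. Without pool S40327, the counts were 582 for striatal projection against Sst, 509 for striatal projection against Pvalb, 305 for striatal projection against excitatory, 1580 for striatal projection against Aqp4, 64 for Sst against Pvalb, 358 for Sst against excitatory, 1244 for Sst against Aqp4, 396 for Pvalb against excitatory, 1508 for Pvalb against Aqp4 and 1966 for excitatory against Aqp4. Within pool S40325, the counts were 552 for striatal projection against Sst, 457 for striatal projection against Pvalb, 131 for striatal projection against excitatory, 38 for Sst against Pvalb, 104 for Sst against excitatory and 86 for Pvalb against excitatory. Within pool S40327, the counts were 424 for striatal projection against Sst, 151 for striatal projection against Pvalb, 40 for striatal projection against excitatory, 2083 for striatal projection against Aqp4, 2790 for striatal projection against Mog, 11 for Sst against Pvalb, 56 for Sst against excitatory, 1934 for Sst against Aqp4, 2653 for Sst against Mog, 20 for Pvalb against excitatory, 1116 for Pvalb against Aqp4, 1929 for Pvalb against Mog, 1237 for excitatory against Aqp4, 2066 for excitatory against Mog and 969 for Aqp4 against Mog. With limma-voom, the counts were 1573 for striatal projection against excitatory, 486 for Sst against Pvalb, 1565 for Sst against excitatory, 1743 for Pvalb against excitatory and 8187 for excitatory against Mog. With the vector code as unit, the counts were 579 for striatal projection against excitatory. Without pool S40317, the counts were 426 for striatal projection against excitatory, 137 for Sst against Pvalb, 403 for Sst against excitatory, 470 for Pvalb against excitatory, 2756 for Pvalb against Aqp4, 2890 for excitatory against Aqp4 and 3565 for excitatory against Mog. With at least 5 nuclei per sum, the counts were 929 for striatal projection against Aqp4, 2780 for striatal projection against Mog, 774 for Sst against Aqp4, 2539 for Sst against Mog, 697 for Pvalb against Aqp4, 2432 for Pvalb against Mog, 1203 for excitatory against Aqp4, 3081 for excitatory against Mog and 364 for Aqp4 against Mog. With DESeq2, the counts were 1043 for Sst against Pvalb, 1486 for Sst against excitatory, 1831 for Pvalb against excitatory, 6669 for Pvalb against Mog and 5276 for Aqp4 against Mog. With at least 2000 genes per nucleus, the counts were 444 for Sst against Pvalb. With no construct block, the counts were 604 for Sst against Pvalb and 4249 for Aqp4 against Mog. Within pool S40317, the counts were 7 for Pvalb against excitatory. Between Drd2 and Drd1, DESeq2 called 529 and limma-voom 22 genes, and for element position DESeq2 called 83. Thinning to 30000 reads moved the share with a read to 14.9% for Kcnj4 in excitatory, 0.935% for Kcnj6 in striatal projection, 29.3% in Pvalb and 40.3% in excitatory, and 0% for Kcnj16 in excitatory nuclei. By replicate number no paired analysis was possible because those numbers in the labels name single nuclei and the sums carry none; the classes were paired by construct, through the construct block. Drd2 against Drd1 without S40325 and deep against superficial excitatory nuclei could not be fitted. At these depths and nucleus numbers a gene read in few nuclei may be missed in a whole class.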
